A study of Homo sapiens with 4 samples.

Results

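The aminoacyl-tRNA synthetases of the cytosol, the transcription factor ATF4 with its stress targets, and the enzymes of serine, proline, cysteine and one-carbon metabolism were followed in 22Rv1, a castration-resistant cell line of human prostate cancer. The set was a list of 42 gene symbols, of which 37 had a named probe set in the deposited values, out of 17687 named genes. MARS1, QARS1, VARS1, GPT2 and SHMT1 were not analysed here. The 37 genes comprised 16 synthetases, 8 regulators, 8 enzymes of amino acid synthesis and 5 one-carbon enzymes.

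Total RNA was profiled on 4 arrays, 1 for each of 4 cultures, so no difference between 2 arrays has a replicate check. All cells were held in phenol red-free medium with 2.5% charcoal-treated serum for 3 days before hormone and were transfected with an siRNA 48 h before it. The groups were siControl with ethanol vehicle, siControl with 10 nM dihydrotestosterone (DHT), siOCT1 with vehicle and siOCT1 with 10 nM DHT, each for 24 h. OCT1 is an octamer-binding transcription factor, its own level was not analysed here, and siOCT1 names the transfection as labelled. The design asks how androgen-dependent expression looks once OCT1 is targeted.

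Each aminoacyl-tRNA synthetase joins 1 amino acid to its tRNA for use by the ribosome. ATF4 is translated when the initiation factor eIF2 is phosphorylated, as in amino acid shortage or endoplasmic reticulum stress, and it activates many synthetase genes, amino acid transporters and the enzymes that make asparagine, serine, glycine and proline. Serine feeds the folate cycle, which supplies one-carbon units for purines and thymidylate, and these pathways are used heavily by dividing tumour cells. ATF4 acts mainly through its protein level, which these arrays do not measure.

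Signals are log2 values. Background, set at the 95th percentile of negative control signals, lay between 6.62 and 7.39 on the 4 arrays, highest with siOCT1 in vehicle and lowest with siControl in vehicle. A gene was called measured if its brightest array exceeded 6.51, the median of that quantity over all genes. By this rule 35 of the 37 genes were measured, 3 of the 35 lay under that level on at least 1 array, and 31 of the 37 lay above background on every array. As a check of the line, 6 of 8 luminal markers read here lay above background on every array, FOXA1 and EPCAM among them. KRT8, a luminal keratin, fell by 0.97 with siOCT1 (adjusted p = 0.0342, limma), and KLK2, a kallikrein of luminal cells, was below background on both siOCT1 arrays and at least 2.75-fold lower with siOCT1 in DHT. Of 12 basal, stromal and immune markers 10 lay below background on every array, COL1A2 exceeded it on 1 array, and ACTA2 exceeded it on both siOCT1 arrays alone, where it was at least 2.19-fold higher than with siControl in vehicle and at least 1.30-fold higher in DHT. Of the 8 luminal markers 2 fell with siOCT1 (25%, against 15.3% of measured genes) and 0 rose. Their median siOCT1 effect was 0.23, and 3 of the 8 had a negative effect. The part of these marker differences in the results was not tested.

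Promoters are shown first because a known route from ATF4 to these genes is a short element, the C/EBP-ATF response element (CARE). RefSeq windows on GRCh38.p14 reach from 250 bases before to 50 bases after each annotated start, and 34 of the 42 symbols had at least 1. The core TGATGNAA was searched on both strands. It occurred in windows of 12 of the 34 genes, which is 35.3%, and in windows of 4.46% of all 27305 symbols in the table. The 34 genes had 52 windows and all symbols 35116. The list includes genes named as ATF4 targets, so a higher share of this element is built into it, and the difference was not tested. Cores that lay wholly upstream of a start in measured genes are printed below with up to 30 flanking bases on each side, stopping at the start. Each is written 5′ to 3′ on the strand of the gene, with the core in capitals, which reads as its reverse complement where the match is on the opposite strand.
MTHFD1L: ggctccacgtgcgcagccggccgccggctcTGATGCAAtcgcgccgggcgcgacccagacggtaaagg
ASNS: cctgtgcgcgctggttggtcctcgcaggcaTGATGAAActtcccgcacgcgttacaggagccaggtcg
CHAC1: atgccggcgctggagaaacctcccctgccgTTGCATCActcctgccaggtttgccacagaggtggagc
AARS1: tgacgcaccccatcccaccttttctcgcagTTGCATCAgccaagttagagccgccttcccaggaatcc
IARS1: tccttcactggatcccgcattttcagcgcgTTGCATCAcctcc
GARS1: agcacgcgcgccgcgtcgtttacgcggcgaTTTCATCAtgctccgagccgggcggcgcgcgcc
ATF3: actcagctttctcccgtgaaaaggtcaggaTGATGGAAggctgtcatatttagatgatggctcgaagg
CEBPG: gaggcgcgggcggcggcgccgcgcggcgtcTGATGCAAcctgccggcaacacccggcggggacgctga

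The MTHFD1L stretch lies at chr6:150866327-150866394 on the plus strand, and its core begins 90 bases upstream of one annotated start. The ASNS stretch lies at chr7:97872439-97872506 on the minus strand, with the core 68 bases upstream, where a nutrient-sensing element of this gene is known. CHAC1 lies at chr15:40953232-40953299 (plus, 209 bases upstream), AARS1 at chr16:70289656-70289723 (minus, 187), IARS1 at chr9:92293698-92293740 (minus, 13) and GARS1 at chr7:30594815-30594877 (plus, 33). ATF3 lies at chr1:212565186-212565253 (plus, 191) and CEBPG at chr19:33374041-33374108 (plus, 42). In CARS1 and MARS1 the core spans the start, and in NARS1 and TARS1 it lies just after it. The octamer ATGCAAAT, the sequence for which OCT1 is named and which can share letters with a CARE, was found in the windows of 0 of the 34 genes and of 2.19% of all symbols. A match is a description of letters and not evidence of binding, and the absence of one says only that these letters are not in the window.

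**Figure D1:**
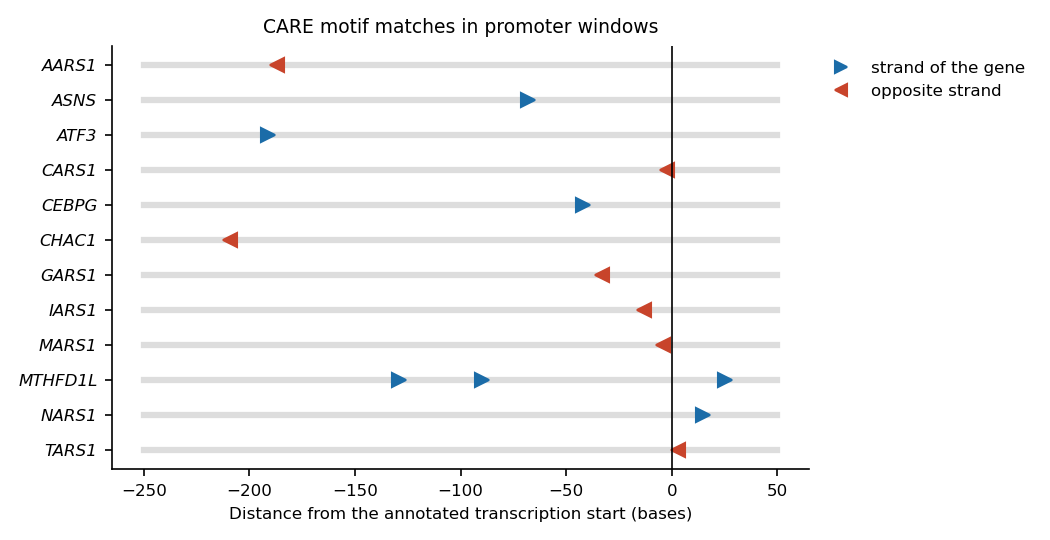
Position of each CARE core (first base, left end of the core) in the promoter windows of 12 genes, with distance from the annotated start in bases on the x axis and grey bars marking the window from 250 bases before to 50 after. MTHFD1L has 3 marks because 1 core falls in the windows of 3 annotated starts, and most cores lie between the start and 209 bases upstream.

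Of the 11 measured genes with the core, 3 fell in siOCT1 cells (MTHFD1L, ASNS and AARS1), and the median siOCT1 effect was -0.85, with a range from -1.89 to -0.28. Of the 18 measured genes with a window and no core, 5 fell, with a median of -0.54 and a range from -1.68 to 0.44. The ranges overlap over most of their length. The share of genes that fell was similar in both sets, where 15.3% of all measured genes fell. The difference between the medians was not tested.

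One-carbon enzymes were the group in which every measured member fell with siOCT1. All 5 passed an additive limma fit of siRNA and ligand over the 4 arrays, with Benjamini-Hochberg adjustment over 8843 measured genes and a threshold of 0.05, and their median effect was -1.22 against -0.06 over all measured genes. Across the whole set 11 of 35 measured members fell and 0 rose, where 15.3% of all measured genes fell and 9.1% rose. These are 31.4% and 0% of the members, and the median effect over the 35 was -0.83. The list was chosen with earlier results of these data known. Member shares given here and below therefore describe the list and are no test against all genes. The effect is the mean of the differences in vehicle and in DHT. Its residual has 1 degree of freedom, set by how far these differences lie apart in that gene. To this limma adds a prior of 5.85 degrees of freedom drawn from all measured genes. The p-values therefore rest mainly on a spread pooled over genes, and not on repeat cultures. Fewer cells with a transcript and less transcript per cell cannot be told apart in bulk RNA.

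ALDH1L2, the mitochondrial 10-formyltetrahydrofolate dehydrogenase, had signals of 10.69 with siControl in vehicle and 9.36 in DHT, and of 7.60 and 7.42 with siOCT1. Both siOCT1 arrays were low, and the 2 pairs did not overlap. The difference was -3.10 in vehicle and -1.94 in DHT, and the gene fell by 2.52 (SE 0.34, adjusted p = 0.00474, limma), a 5.72-fold change.

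MTHFD1L, the mitochondrial formyltetrahydrofolate synthetase that releases formate, stood at 10.65 and 10.10 with siControl in vehicle and DHT and at 7.92 and 9.06 with siOCT1. It was lowest with siOCT1 in vehicle, and its siOCT1 signal in DHT lay between that and both siControl signals. It fell by 1.89 (SE 0.41, adjusted p = 0.0201, limma), made up of -2.74 in vehicle and -1.03 in DHT.

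MTHFD2, the mitochondrial dehydrogenase and cyclohydrolase that precedes MTHFD1L in the pathway, gave 14.71 and 14.42 with siControl and 13.28 and 13.41 with siOCT1. SHMT2, which splits serine into glycine and a one-carbon unit in mitochondria, gave 15.26 and 15.12 with siControl and 14.03 and 14.19 with siOCT1. In both genes the siRNA pairs were well apart and the ligand made little difference. MTHFD2 fell by 1.22 (adjusted p = 0.0091, limma) and SHMT2 by 1.08 (adjusted p = 0.00925, limma).

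MTHFD1, the cytosolic enzyme that carries the matching reactions, stood at 12.18 and 12.20 with siControl and at 11.06 and 11.39 with siOCT1. Its 2 siControl signals were nearly equal and both exceeded the siOCT1 signals. It fell by 0.96 (SE 0.23, adjusted p = 0.0283, limma). MTHFD1 was the only cytosolic enzyme of this group with values, as SHMT1 was not analysed. Its difference from the mitochondrial enzymes was not tested.

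**Figure D2:**
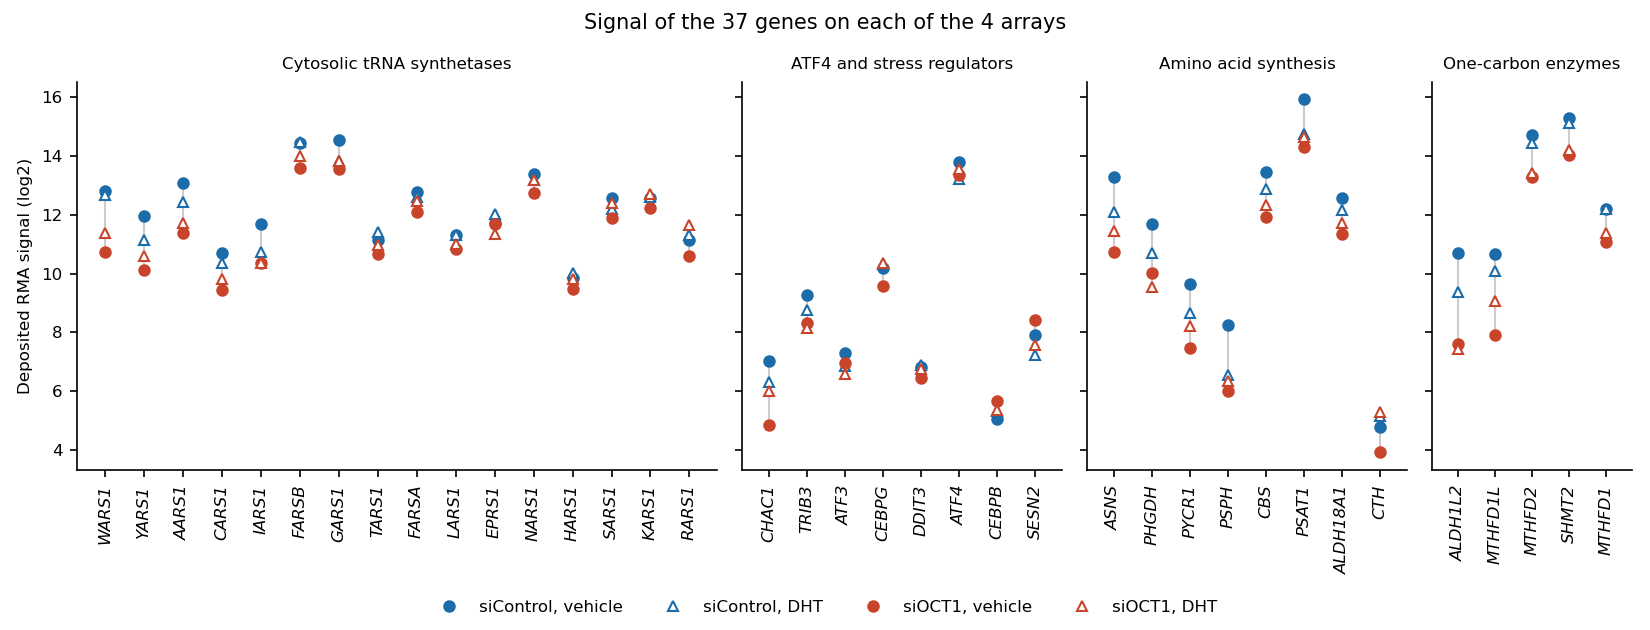
Deposited log2 RMA signal (y axis) of the 37 genes on each array, ordered within each role by the mean siOCT1 minus siControl difference, with circles for vehicle, open triangles for DHT, blue for siControl and red for siOCT1. Each point is 1 array and the grey line spans the 4, and signals of different genes are not comparable with each other. ALDH1L2 runs from 7.42 to 10.69, with both siOCT1 points at the bottom.

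Enzymes of amino acid synthesis were lower with siOCT1 in every measured case, and the differences were larger in vehicle than in DHT. Of 7 measured genes 3 fell (ASNS, PHGDH and CBS), which is 42.9% against 15.3% of all measured genes. The other 4 did not pass the test, and the median effect was -1.21. That median is the value of PSPH, which exceeded background on the siControl vehicle array alone. With values raised to the highest background PSPH stood at -0.42. In vehicle the 7 differences ran from -2.56 to -1.21. All 7 exceeded 1.5-fold, where 28.7% of measured genes were lower by that size. In DHT they ran from -1.16 to -0.11, and 2 exceeded it, a share close to the 26% of measured genes.

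ASNS, which makes asparagine and is a classical ATF4 target, had signals of 13.29 with siControl in vehicle, 12.09 with siControl in DHT, 10.73 with siOCT1 in vehicle and 11.43 with siOCT1 in DHT. The siControl vehicle array was the highest, and the siRNA pairs came closest in DHT. The difference was -2.56 in vehicle and -0.66 in DHT, and ASNS fell by 1.61 (SE 0.43, adjusted p = 0.0365, limma). That call held under 6 of 9 alternative settings, with adjusted p from 0.0039 to 0.0662.

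PHGDH, the first enzyme of serine synthesis, stood at 11.69 and 10.71 with siControl and at 10.02 and 9.54 with siOCT1. It was lower with siOCT1 in both ligand states, by 1.68 and 1.16, and the pairs did not overlap. It fell by 1.42 (SE 0.26, adjusted p = 0.0124, limma).

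PSAT1, the next enzyme of the serine pathway, stood at 15.92 with siControl in vehicle and at 14.73, 14.28 and 14.62 on the siControl DHT, siOCT1 vehicle and siOCT1 DHT arrays. One array was high and the other 3 lay close together. Its effect of -0.88 (SE 0.34, adjusted p = 0.102, limma) did not pass, with -1.64 in vehicle and -0.11 in DHT. PSPH, the phosphatase that finishes serine synthesis, had the same layout at 8.24 on the siControl vehicle array and 6.54, 6.01 and 6.36 on the others, all 3 of which lay below background. Against the background of the siOCT1 vehicle array it was at least 1.80-fold lower with siOCT1 in vehicle.

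CBS, the first enzyme of the route from homocysteine to cysteine, stood at 13.45 and 12.86 with siControl and at 11.91 and 12.34 with siOCT1. The pairs did not overlap, and CBS fell by 1.03 (SE 0.29, adjusted p = 0.0428, limma). This call lay near the threshold and held under 4 of 9 alternatives, with adjusted p from 0.0168 to 0.0798. CTH, which completes that route, lay below background on every array, between 3.93 and 5.30, and was not tested.

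The proline enzymes did not pass. PYCR1, which makes the last step to proline, stood at 9.64 and 8.67 with siControl and at 7.48 and 8.22 with siOCT1, with an effect of -1.30 (SE 0.42, adjusted p = 0.0625, limma). ALDH18A1, which makes the first, stood at 12.55 and 12.16 with siControl and at 11.34 and 11.70 with siOCT1, with an effect of -0.83 (adjusted p = 0.0612, limma). In both genes each siOCT1 signal was below each siControl signal.

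Among the synthetases the signal was lower on average with siOCT1 for all 16, although 3 passed the test, 18.8% of them against 15.3% of measured genes. The median effect of the 16 was -0.44, smaller in size than that of the metabolic enzymes, and a test of that difference was not made. WARS1, the tryptophanyl enzyme, stood at 12.82 and 12.67 with siControl and at 10.74 and 11.38 with siOCT1. The 2 siControl signals lay together and far above the siOCT1 signals, and WARS1 fell by 1.68 (SE 0.27, adjusted p = 0.0081, limma), a 3.22-fold change.

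AARS1, the alanyl enzyme, had signals of 13.07 and 12.41 with siControl and of 11.39 and 11.73 with siOCT1. YARS1, the tyrosyl enzyme, had 11.97 and 11.14 with siControl and 10.13 and 10.59 with siOCT1. In both genes the siControl vehicle array was highest and the siOCT1 vehicle array lowest. AARS1 fell by 1.18 (adjusted p = 0.0292, limma) and YARS1 by 1.19 (adjusted p = 0.0455, limma), and the YARS1 call held under 3 of 9 alternatives, with adjusted p up to 0.076.

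The other 13 synthetases had effects between -0.89 and -0.09. CARS1, the cysteinyl enzyme, was the nearest of them in size, at 10.70 and 10.34 with siControl and 9.43 and 9.83 with siOCT1 (effect -0.89, adjusted p = 0.0623, limma). FARSB, the beta subunit of the phenylalanyl enzyme, stood at -0.66 (adjusted p = 0.0506), and its partner FARSA at -0.42 (adjusted p = 0.236, both limma). At the other end KARS1, the lysyl enzyme, stood at -0.14 and RARS1, the arginyl enzyme, at -0.09, and both turned to 0.01 and 0.00 with loess centring of the arrays. GARS1 and KARS1 each encode both the cytosolic and the mitochondrial form of their enzyme.

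The difference between ligand states was plain in several of these genes. GARS1, the glycyl enzyme, was lower with siOCT1 by 0.97 in vehicle and by 0.01 in DHT. SARS1, the seryl enzyme, stood at -0.69 in vehicle and 0.23 in DHT, and NARS1, the asparaginyl enzyme, at -0.67 and 0.01. EPRS1, the joint glutamyl and prolyl enzyme, went the other way at -0.04 and -0.69.

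ATF4 itself was highest on the siControl vehicle array. Its signals were 13.80 with siControl in vehicle, 13.22 with siControl in DHT, 13.34 with siOCT1 in vehicle and 13.54 with siOCT1 in DHT. The siRNA pairs overlapped, and the effect of -0.07 (SE 0.25, adjusted p = 0.861, limma) changed sign with arrays centred on positive controls (0.04) or by loess (0.10). Of the 7 measured regulators 0 passed the limma test in either direction, with 2 at an unadjusted p under 0.05, a level that 39.3% of measured genes reached.

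TRIB3, a pseudokinase induced by ATF4 that restrains it, stood at 9.27 and 8.77 with siControl and at 8.32 and 8.14 with siOCT1, an effect of -0.79 (adjusted p = 0.0717, limma). CEBPG, a bZIP partner of ATF4, stood at 10.18 and 10.32 with siControl and at 9.58 and 10.36 with siOCT1, with an effect of -0.28 (adjusted p = 0.488, limma). SESN2, a stress-induced inhibitor of mTORC1 signalling, was the 1 measured member with a positive effect, 0.44 (adjusted p = 0.292, limma), from 7.92 and 7.23 with siControl and 8.44 and 7.59 with siOCT1.

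The pro-apoptotic end of the pathway was dim. DDIT3 (the factor CHOP), ATF3 and CHAC1, which degrades glutathione, exceeded background on the siControl vehicle array alone, at 6.84, 7.29 and 7.04. For DDIT3 this reflects the background level, since its signal with siControl in DHT was 6.90, under that array's background of 6.99. CHAC1 lay between 4.87 and 6.31 on the other arrays, all below background, and no fold against background can be given for it between the siRNAs. CEBPB lay below background on every array, between 5.07 and 5.67.

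**Figure D3:**
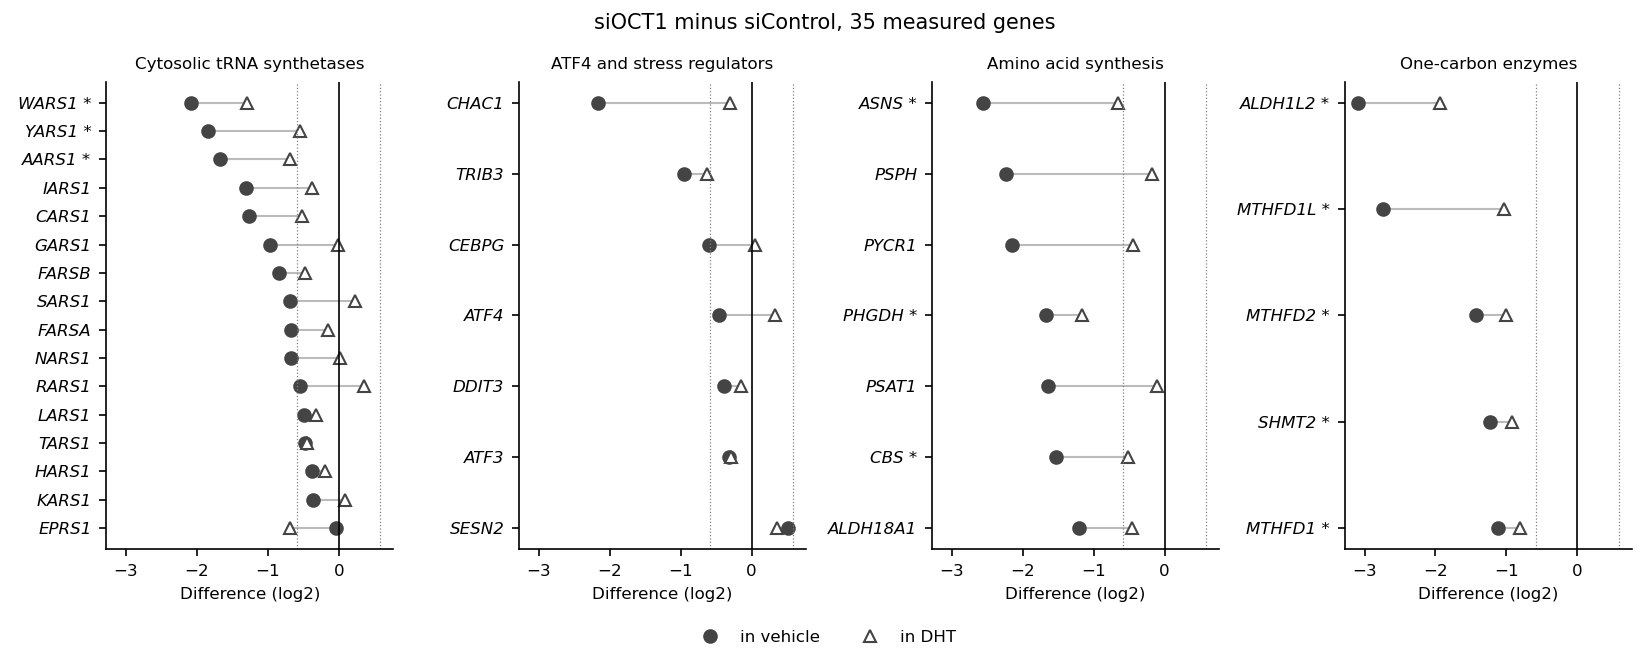
Difference siOCT1 minus siControl (log2, x axis) for the 35 measured genes, in vehicle (filled circles) and in DHT (open triangles), with 1 array per group, dotted lines at 1.5-fold and an asterisk on the 11 genes that passed the additive limma test. For 33 genes the circle lies left of the triangle, and ALDH1L2 is furthest left at -3.10 and -1.94.

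Counted by single differences, 25 of the 35 measured members were lower with siOCT1 by at least 1.5-fold in vehicle and 0 were higher, where 28.7% of measured genes were lower and 22.9% higher. The 25 include CHAC1, for which no fold can be given, and 24 were lower with values raised to the highest background. In DHT 11 were lower and 0 higher, where 26% of measured genes were lower and 18.9% higher. The first is 71.4% of members and the second 31.4%, so the gap from all genes was wider in vehicle. In both ligand states 10 members were lower by this size and 0 higher, or 28.6% and 0%, against 18.7% and 12.2% of measured genes. Both siOCT1 arrays lay below both siControl arrays for 27 of the 35, or 77.1%, against 34.5% of measured genes. The 27 include CHAC1, DDIT3 and PSPH, each above background on the siControl vehicle array alone, so their order on the other arrays is not informative. With arrays centred on the positive controls, which moves the median of all genes in vehicle from -0.06 to 0.15, 21 members remained lower by this size in vehicle and 1 was higher.

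With DHT, members were mostly lower in siControl cells and mostly higher in siOCT1 cells, on 1 pair of arrays each. In siControl 13 of 35 members were lower with DHT by at least 1.5-fold and 0 were higher, which is 37.1% against 12.8% of measured genes lower and 15.8% higher. In siOCT1 cells 1 was lower and 7 were higher, where 11.8% and 14.1% of measured genes were. CHAC1, below background on all arrays but one, is in the 13 and in the 7. Raising values to the highest background gave 11 and 6. The median DHT difference over members was -0.39 in siControl and 0.34 in siOCT1, against -0.03 and 0.02 over all measured genes. With positive control centring the siControl count was 8. The DHT difference in siControl and the siOCT1 difference in vehicle share the siControl vehicle array, which was the highest of the 4 for 24 of 35 members, 68.6% against 28.8% of measured genes, so the 2 are not independent. The siOCT1 vehicle array was the lowest for 28 of 35, or 80%, against 30.4% of measured genes. ATF3, CHAC1 and PSPH in the 24, and CHAC1, DDIT3 and PSPH in the 28, exceeded background on the siControl vehicle array alone. CHAC1 counted as measured only through that array, at 7.04, so its place as highest there followed from the filter.

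Of the 13 lower members 6 were amino acid enzymes, 4 were synthetases, 2 were regulators and 1 was a one-carbon enzyme. PSPH was at least 2.38-fold lower with DHT in siControl cells, against the background of the DHT array, and lay below background on both siOCT1 arrays. ASNS stood at -1.20 in siControl and 0.70 in siOCT1, PSAT1 at -1.19 and 0.34, PYCR1 at -0.97 and 0.74, and PHGDH at -0.99 and -0.47. Differences of at least 1.5-fold in opposite directions, lower in siControl and higher in siOCT1, were present in 2 of the 31 members above background on every array, ASNS and PYCR1, and in 0.465% of all 6458 such genes. PYCR1 with siOCT1 in vehicle lay at 7.48, close to the background of 7.39 on that array. The 1 measured amino acid enzyme not lower by 1.5-fold in siControl was ALDH18A1 at -0.39.

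Synthetases split in siControl cells. IARS1 (isoleucyl) stood at -0.93, YARS1 at -0.82, GARS1 at -0.70 and AARS1 at -0.65, while 7 of the 16 were slightly higher with DHT, up to 0.31 for EPRS1. In siOCT1 cells 15 of 16 were higher with DHT, RARS1 by 1.07 and WARS1 by 0.63, with EPRS1 at -0.35 the exception. The median of the 16 was -0.15 in siControl and 0.39 in siOCT1.

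In the one-carbon group ALDH1L2 stood at -1.33 with DHT in siControl and -0.17 in siOCT1, and MTHFD1L at -0.56 and 1.15. SHMT2, MTHFD1 and MTHFD2 had differences between -0.30 and 0.33 under both siRNAs. Among the regulators SESN2 was lower with DHT under both siRNAs, by 0.70 and 0.85, and CEBPG was higher by 0.13 and 0.79. ATF4 stood at -0.58 in siControl, just short of 1.5-fold, and at 0.20 in siOCT1, so its response changed by 0.78, past 1.5-fold.

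**Figure D4:**
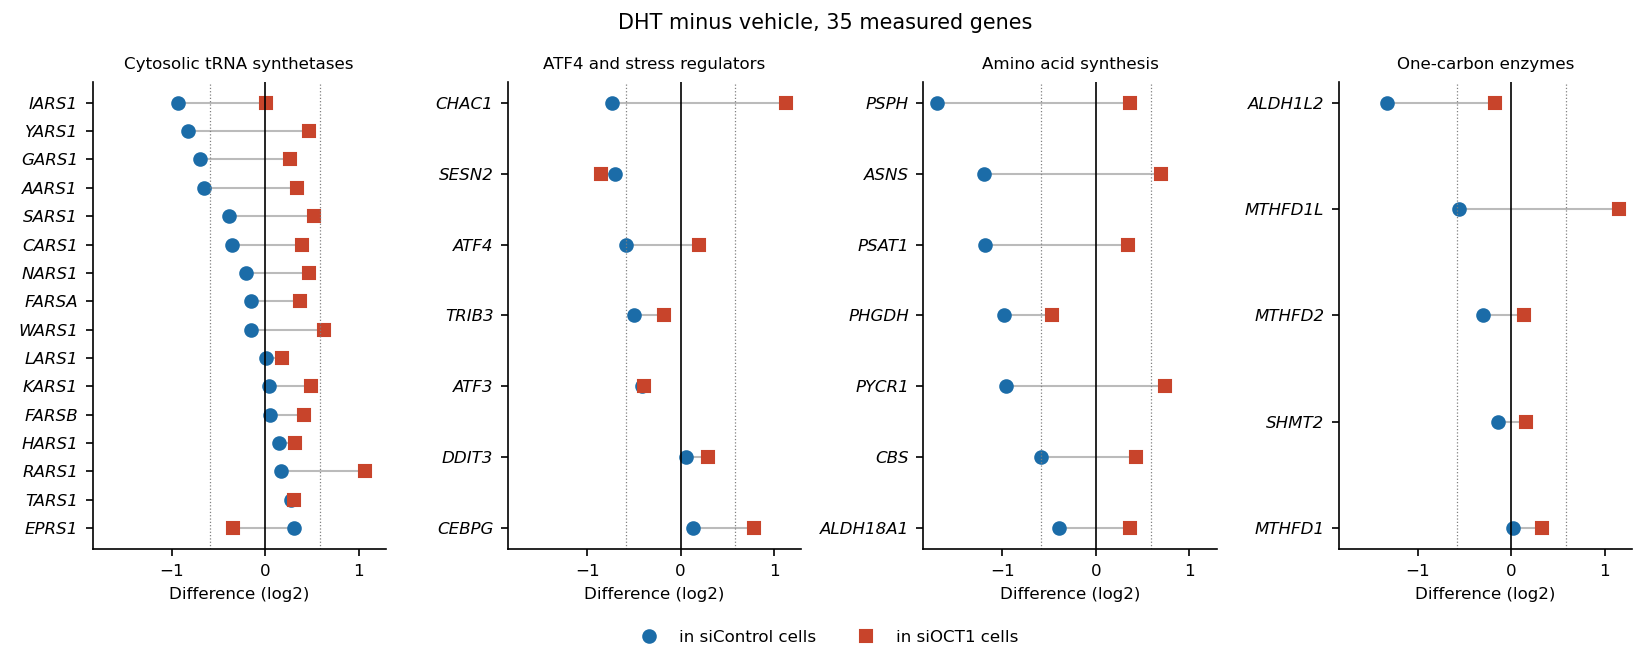
Difference DHT minus vehicle (log2, x axis) for the 35 measured genes in siControl cells (blue circles) and siOCT1 cells (red squares), with 1 array per group and dotted lines at 1.5-fold. For 33 genes the red square lies right of the blue circle, and PSPH is furthest left at -1.70, a signal difference that includes an array below background.

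As 1 effect shared by both siRNAs, DHT changed 0 of the 35 members by the limma test after adjustment, where 0.679% of measured genes rose and 0.305% fell. At an unadjusted p under 0.05 there were 2 members, against 13.5% of measured genes. Opposite responses under the 2 siRNAs cancel in this effect and enlarge its error, as in ASNS at -0.25 (SE 0.43). The count of 0 therefore does not describe DHT under 1 siRNA. The change of the DHT response, in siOCT1 less that in siControl, exceeded 1.5-fold upward in 20 members and downward in 1, EPRS1 at -0.66, where 17.5% and 18% of measured genes were. With values raised to the highest background the upward count was 19. The median change was 0.75, and among members above background on every array it was largest in ASNS at 1.90, MTHFD1L and PYCR1 at 1.71 and 1.70, and PSAT1 at 1.53. Each change is a single value with no test and uses the siControl vehicle array as well, and 14 members passed the positive size rule with positive control centring.

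Neighbouring genes of the pathway were read from fixed lists, beside the 15.3% of measured genes that fell and the 9.1% that rose. Of 12 measured mitochondrial tRNA synthetases 2 fell (16.7%), YARS2 by 1.12 (adjusted p = 0.0412) and IARS2 by 0.93 (adjusted p = 0.0274), with FARS2 at -0.95 not passing (adjusted p = 0.0999, all limma). The YARS2 call was lost without a filter (adjusted p = 0.0782), with values raised to background (0.0548) and without trend (0.0549), and the IARS2 call without trend (0.0568, all limma). Their median was -0.65. Of the other cytosolic synthetase and tRNA genes 3 were measured and 0 passed in limma, with 1 at an unadjusted p under 0.05. SEPSECS, which makes selenocysteinyl-tRNA, stood at 0.83 (and passed with positive control centring at an adjusted p of 0.0448, limma), the tRNA exporter XPOT at -0.30 and the synthetase complex scaffold AIMP1 at -0.02, which turned to 0.11 with loess and 0.08 with positive control centring.

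Of 14 measured genes for eIF2, its kinases, its exchange factor eIF2B and its phosphatase, 2 fell (14.3%) and 0 rose, with a median of -0.32. EIF2S3, the gamma subunit of eIF2, fell by 1.93 (adjusted p = 0.00325) and EIF2B1, the alpha subunit of eIF2B, by 0.98 (adjusted p = 0.0261), while EIF2B3 stood at -0.91 without passing (adjusted p = 0.0639, all limma).

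Of 10 further ATF4 targets 3 fell (30%) and 1 rose, with a median of -0.37. GOT1, the cytosolic aspartate aminotransferase, fell by 1.69 (adjusted p = 0.0036), and PCK2, the mitochondrial PEP carboxykinase, passed at an adjusted p of 0.0276. PCK2 exceeded background on the siControl vehicle array alone, at least 1.27-fold above siOCT1, and its call was lost with values raised to background (adjusted p = 0.493, limma). KLHL24, an adaptor of a ubiquitin ligase, rose by 1.49 (adjusted p = 0.0126, all limma).

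Of 13 further folate and glycine genes 3 fell (23.1%) and 0 rose, with a median of -0.41. TYMS, the thymidylate synthase, fell by 3.65 (adjusted p = 0.00121), and GCSH, a subunit of the glycine cleavage system, by 1.51 (adjusted p = 0.0151, both limma). GGH, which trims folate polyglutamates, also fell (adjusted p = 0.00318, limma). Both of its siOCT1 signals lay below background, so only bounds can be given, 2.80-fold in vehicle and 2.97-fold in DHT. Of 7 further proline, glutamate and cysteine genes 1 fell (14.3%). OAT, the ornithine aminotransferase, fell by 2.39 (adjusted p = 0.00516, limma). PYCR3, above background on 1 array, and MPST, on 0, did not pass (adjusted p = 0.12 and 0.132, limma).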

How the data were processed

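The deposited values are log2 signals, 1 per probe set. The authors computed them by RMA, with Affymetrix Expression Console named in the submitters' processing notes; versions and the genome build are not given in the sources used here. Because RMA gives all arrays the same distribution, a shift of total RNA per cell would not show. The base of the logarithm follows from the range, and 327 to 379 signals per array exceed 16, more than a 16-bit scanner gives, so the scale may be stretched. Array medians were 5.99 to 6.03 and correlations 0.970 to 0.987 across probe sets. Precision is limited by the number of arrays.

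Of 24351 probe sets 17709 had 1 gene symbol, 0 had several, 3739 were unnamed here, and the rest were controls. For the 20 genes with several probe sets the brightest was used. The additive fit used limma 3.58.1 (intensity trend, prior of 5.85 degrees of freedom) in R 4.3.3; "rose" and "fell" refer to it. If 1 array of a pair was below its own background, the fold is the other array's signal over that level, written "at least". On simulated data for the siOCT1 effect with 200 changed genes among 8843, the additive fit recovered 64% of 2-fold and 98% of 4-fold changes, with 29 and 18 false calls. At both sizes the false calls were a larger share of all calls than the adjusted p threshold. The measured data gave 2158 calls for this effect, so the simulated rates need not apply to them. No rate was obtained separately for genes whose siOCT1 difference varied with ligand, as in many members. The members and lists were chosen with earlier results of these data known. Every member is accounted for, and of each neighbouring list up to 3 measured genes with the largest siOCT1 effect are named. Alternatives were 2 other filters, 2 other scalings, values raised to 7.39, 32 added before log2, limma without trend or robust, probe set means and a 2-fold rule. Tables and plots used Python 3.11.15, pandas 2.3.3, statsmodels 0.14.6 and matplotlib 3.10.9.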

Additional observations from a re-analysis of the deposited data

Results flagged for a closer look

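In 2 of the 31 members above background on every array the signal was lower with DHT by at least 1.5-fold in siControl cells and higher by as much in siOCT1 cells, a layout seen in 0.465% of all 6458 genes above background on every array. The change between the responses was 1.90 for ASNS and 1.70 for PYCR1. PYCR1 passed on the siOCT1 vehicle array by a small margin, at 7.48 against a background of 7.39. With DHT in siOCT1 cells 26.6% of the negative controls were higher by 1.5-fold. The restriction to genes above background was chosen after the values were seen, and it leaves out CHAC1, whose signals on 3 arrays lay below background. Each response rests on 1 pair of arrays, and the difference between them was not tested.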

How the results depend on the processing

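Of the 11 members that fell, 6 were called under all 9 alternatives to the limma fit (WARS1, PHGDH, SHMT2, MTHFD1L, MTHFD2 and ALDH1L2) and 2 under 8 (AARS1 and MTHFD1). The member count of 11 was 6 without the intensity trend and 8 to 13 under the others, and 0 members rose under any. Effects that changed sign were all near 0: with loess, KARS1 at 0.0063, RARS1 at 0.0004, ATF4 at 0.1008 and AIMP1 at 0.1146, and with positive control centring RARS1 at 0.0137, ATF4 at 0.0400 and AIMP1 at 0.0842. Over all genes the siOCT1 effect called 805 higher and 1353 lower. With positive control centring it called 1218 and 1344, moving the higher share of calls from 37.3% to 47.5%. With values raised to the highest background it called 1405 in all, 485 of them higher, among 7734 genes. The DHT effect called 87 genes, and 57 without a filter, 293 with positive control centring, 9 with values raised to background and 30 without trend. Under the 2-fold rule the members lower with siOCT1 in DHT were 5, those lower and higher with DHT were 4 and 0 in siControl and 0 and 3 in siOCT1, and the change of response was positive for 9 and negative for 0. With positive control centring 1 member was higher with siOCT1 in vehicle and 8 were lower with DHT in siControl. The cause of these shifts was not tested. No paired analysis was possible because each group holds 1 array and the labels number no replicates. Genes near background are limited by signal over background, among them CHAC1, PSPH, DDIT3, ATF3 and, on the siOCT1 vehicle array, PYCR1. Of the negative controls 24.2% were lower and 31.9% higher by 1.5-fold with siOCT1 in vehicle.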

Other observations

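Chaperones and other genes of the endoplasmic reticulum under the ATF6 and XBP1 arms of the unfolded protein response were read as a further list. It also held the factors XBP1 and ATF6 and the degradation genes SEL1L, EDEM1 and HERPUD1. Of 16 measured genes 11 fell with siOCT1 and 0 rose, with a median effect of -1.82, where 15.3% of measured genes fell, 9.1% rose and the median was -0.06. MANF, a secreted stress protein, fell by 3.10 (adjusted p = 0.00191), PDIA4, a disulfide isomerase, fell by 2.73 (adjusted p = 0.00176), and DNAJC3, an inhibitor of the eIF2 kinase PERK, fell by 2.34 (adjusted p = 0.00394, all limma). Of the 16 genes 13 had a negative effect. DNAJB9 at 0.58, SEL1L at 0.49 and ATF6 at 0.40 went the other way without passing. This list was known to hold lower genes before it was read here.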
